A study of Rattus norvegicus with 14 samples.

Results

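A set of 10 genes known as targets of the androgen receptor were followed in newborn rat foreskin after prenatal exposure to an antiandrogen. They were Fkbp5, Tmprss2, Zbtb16, Tsc22d3, Pmepa1, Ndrg1, Abcc4, Steap4, Camkk2 and Inpp4b, and all 10 were measured among the 14497 genes tested. The rule that names them uses no measured value, but they were chosen with earlier results of these data known. Each was read from its brightest probe set that carried no other gene's symbol, and 9 of them had 1 such probe set, while Abcc4 had 3.

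Sprague Dawley dams received 5 mg/kg/day flutamide or the corn oil vehicle by oral gavage, on gestational days 16 to 20. Foreskin of their pups was taken on postnatal day 5, so the last dose came before birth and the tissue was sampled without further dosing. There were 7 flutamide and 7 corn oil litters, and 2 foreskins of a litter were pooled on 1 Affymetrix Gene 1.0 ST array, which makes the litter the replicate. The values are log2 RMA values, in which a difference of 1 is a doubling of the array signal.

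Testosterone and dihydrotestosterone bind the androgen receptor, which releases its chaperones, enters the nucleus and binds DNA at paired hexamers called androgen response elements. In the fetus this signal masculinises the external genitalia, including the prepuce, and flutamide blocks it by competing for the receptor's hormone pocket. The glucocorticoid receptor binds nearly the same DNA element, and Fkbp5, Zbtb16 and Tsc22d3 are well-known targets of glucocorticoids as well. Most of these genes are known as androgen targets from human prostate cells, and their response to androgen in rat foreskin is less described.

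The deposited values were alike between arrays. Sample medians lay within 0.073 of each other, and any 2 arrays correlated across genes with an r of at least 0.984. RMA brings arrays to a shared scale, so these values do not measure the quality of the RNA or the arrays. The typical gene had an SE of 0.07 for the difference between groups. Markers of the tissue were bright, with 7 flutamide litters between 8.51 and 8.71 and 7 corn oil litters between 8.57 and 8.74 for the mean of 5 basal keratinocyte genes, and between 9.21 and 9.41 and between 9.22 and 9.35 for the mean of 6 dermal fibroblast genes. Pbsn, which encodes the prostate protein probasin, stood at 2.79 ± 0.11 in flutamide and 2.72 ± 0.07 in corn oil litters (SD, n = 7 each), where the lowest value of any probe set was 0.669. It was 1 of 4 measured prostate genes, with a median level of 3.6 over that list. Msmb stood at 3.41 in flutamide and 3.53 in corn oil litters, and Hoxb13 at 4.69 and 4.73. Muscle markers lay lower in flutamide litters, with all 6 smooth muscle genes below 0 and 3 of them at an unadjusted limma p under 0.05, none after adjustment. Their mean ran from 6.94 to 7.26 in flutamide and from 7.08 to 7.43 in corn oil litters. Over a whole tissue, fewer cells of a type and less RNA per cell cannot be told apart. No detection calls were used, so no gene is called present or absent.

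Since the receptor acts through DNA, the 250 bases before the start site were searched for androgen response elements in the RefSeq promoters of the GRCr8 build, which held 9 promoters of 7 members. The hexamer AGAACA, on either strand, was in 0 of these 9 promoters, against 17.5% of all 33469. G and C made up 49.2 to 78.4% of the members' windows, against a median of 51.2% over all promoters. The part of base content in that contrast was not tested. The full element, AGAACA and TGTTCT with 3 free bases between them, was in 4 of the 33469, none of them a member's. This says only that those letters are not in these windows; known elements of such genes often lie in introns or distal enhancers. The upstream windows of Tmprss2 and Fkbp5, which had the largest difference in each direction, and of Steap4, whose window came closest to the full element, are shown with that closest stretch of 15 bases in capitals. It matched 8, 6 and 9 of the 12 fixed letters, and 52.6%, 99.8% and 12.4% of all promoters held a stretch at least as close.
Tmprss2 (chr11:50443115-50443364, minus strand): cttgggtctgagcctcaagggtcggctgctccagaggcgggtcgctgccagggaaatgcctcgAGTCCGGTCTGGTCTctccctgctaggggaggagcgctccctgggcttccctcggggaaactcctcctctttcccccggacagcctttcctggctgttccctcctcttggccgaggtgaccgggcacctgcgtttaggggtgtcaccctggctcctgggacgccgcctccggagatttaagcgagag
Fkbp5 (chr20:6543556-6543805, minus strand): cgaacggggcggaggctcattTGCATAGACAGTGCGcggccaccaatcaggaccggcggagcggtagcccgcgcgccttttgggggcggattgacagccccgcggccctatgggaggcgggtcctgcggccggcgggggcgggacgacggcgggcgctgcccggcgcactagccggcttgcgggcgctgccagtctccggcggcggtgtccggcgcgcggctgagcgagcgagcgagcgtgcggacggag
Steap4 (chr4:27054770-27055019, minus strand): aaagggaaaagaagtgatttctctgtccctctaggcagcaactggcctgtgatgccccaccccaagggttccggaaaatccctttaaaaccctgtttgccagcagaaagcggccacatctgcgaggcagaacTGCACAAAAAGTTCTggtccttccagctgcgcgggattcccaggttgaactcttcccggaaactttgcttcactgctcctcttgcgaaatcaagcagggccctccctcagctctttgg

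None of the 10 members passed limma's test after Benjamini-Hochberg adjustment over all 14497 genes, with adjusted p-values from 0.368 to 0.992. Over all genes 1 passed, or 0.0069%, so a count of 0 among 10 is what that share gives. At an unadjusted limma p under 0.05 there was 1 member, Tmprss2, against 9.16% of all genes. Groups overlapped for all 10 members, where they did not for 0.124% of genes. The differences split evenly, 5 members above and 5 below 0, with a median of 0.002 against 0.005 over all genes.

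The intervals bounded the difference of each member, as they did for most genes tested. For all 10 members the 95% interval of the difference lay within 1.5-fold in both directions, as for 99.3% of all genes. For 9 of the 10, all but Tmprss2, it lay within 1.25-fold, against 85.4% of genes. Apart from Tmprss2, the highest fold inside any member's interval was 1.23 and the lowest 0.825. These bounds hold for array signal, which understates changes of dim genes.

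**Figure D1:**
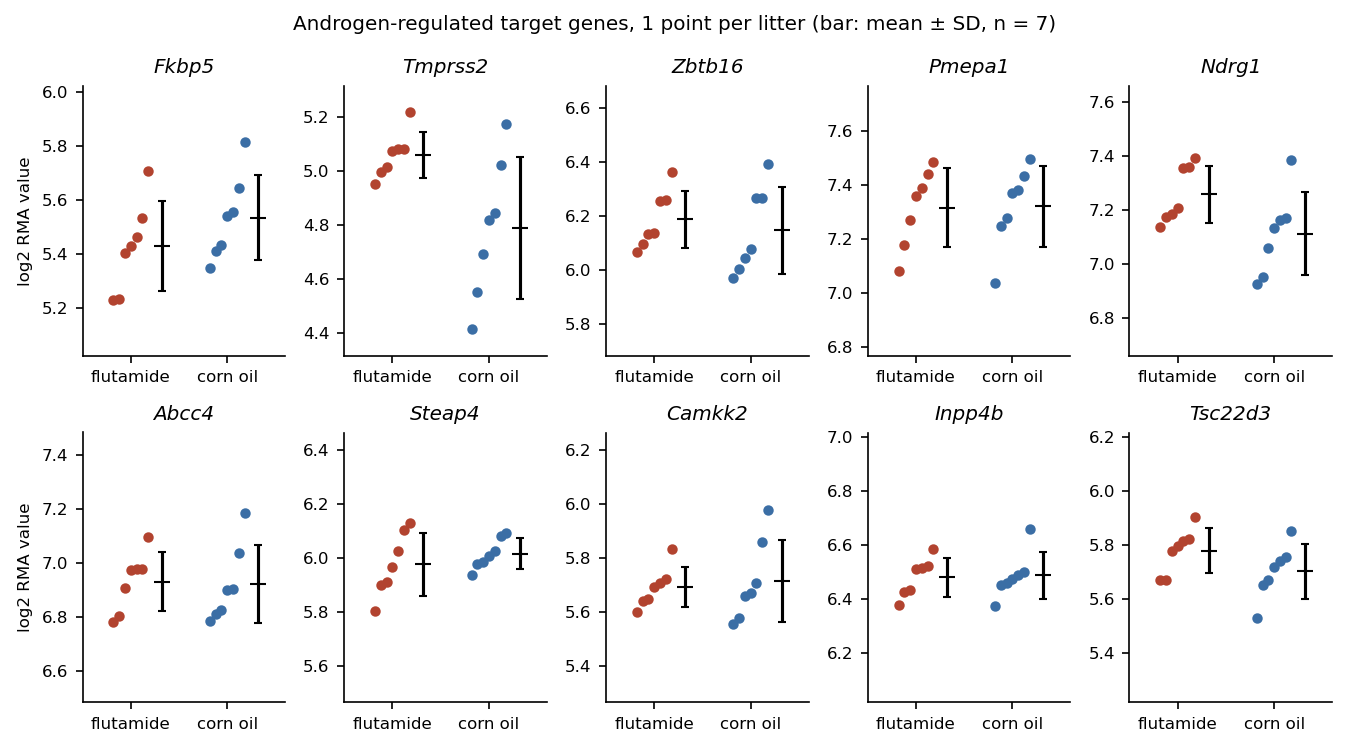
Log2 RMA value (vertical axis, 1 unit high in every panel) of the 10 members in 7 flutamide and 7 corn oil litters, 1 point per litter, with the mean and SD beside each group. The groups overlap in every panel, and Tmprss2 has the widest corn oil spread, an SD of 0.26 against 0.08 in flutamide litters.

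Fkbp5, Zbtb16 and Tsc22d3 are the members named above as well-known targets of glucocorticoids too. Fkbp5 encodes a cochaperone of Hsp90 that sits in steroid receptor complexes and lowers the glucocorticoid receptor's affinity for hormone. Its values ran from 5.23 through a median of 5.43 to 5.71 in flutamide litters, and from 5.35 through 5.54 to 5.82 in corn oil litters. The flutamide litters lay lower on average, with 1 of 7 above the corn oil median and 2 below every corn oil litter, but most values overlapped. The difference was -0.11 (SE 0.08, interval -0.28 to 0.07), a 0.929-fold level, with a limma adjusted p of 0.738. With single litters left out it ran from -0.15, without flutamide replicate 5, to -0.06, without corn oil replicate 6. Skeletal muscle markers also lay lower in flutamide litters, all 6 below 0 and none past the adjusted threshold, with a mean of 5.89 to 6.77 in flutamide and 6.08 to 6.84 in corn oil litters. Over 14 litters Fkbp5 and that mean had an r of 0.653 (permutation p = 0.0112, adjusted over 110 relations 0.346), and the part of these markers in the Fkbp5 difference was not tested.

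Zbtb16 encodes PLZF, a zinc finger transcription factor of limb patterning and stem cell maintenance. It ran from 6.07 through a median of 6.14 to 6.36 in flutamide litters and from 5.97 through 6.08 to 6.39 in corn oil litters. Its difference of 0.04 (SE 0.07, interval -0.11 to 0.19; limma adjusted p = 0.907) was smaller than the SD within either group. It ran from 0.01 without flutamide replicate 6 to 0.08 without corn oil replicate 3. Corn oil litters held both the highest and the lowest value.

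Tsc22d3 encodes GILZ, the glucocorticoid-induced leucine zipper protein, an inhibitor of inflammatory transcription. It ran from 5.67 through 5.80 to 5.90 in flutamide litters and from 5.53 through 5.72 to 5.85 in corn oil litters. Of the flutamide litters 5 lay above the corn oil median and 1 above every corn oil litter. The difference was 0.08 (SE 0.06, interval -0.04 to 0.20; limma adjusted p = 0.729), and without corn oil replicate 1 it was 0.05. The 3 genes thus did not share a direction, Fkbp5 being below 0 and the other two above it, with every interval including 0.

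Tmprss2 encodes a transmembrane serine protease whose transcription in human prostate depends on androgen. It had the largest difference of the 10, with higher values in flutamide litters. These ran from 4.95 through a median of 5.07 to 5.22, against 4.41 through 4.82 to 5.17 in corn oil litters. All 7 flutamide litters were above the corn oil median and 5 of 7 corn oil litters were below every flutamide litter, while corn oil replicates 3 and 5 lay among the flutamide values. Means were 5.06 ± 0.08 in flutamide and 4.79 ± 0.26 in corn oil litters (SD, n = 7 each), so the corn oil litters were the more scattered group. The difference of 0.27 (SE 0.09, interval 0.07 to 0.47), a 1.21-fold level, had an unadjusted limma p of 0.00948 and an adjusted p of 0.368. It ranked 368th of 14497 genes by p-value.

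The spread around the Tmprss2 difference lay mainly in the corn oil group. With single litters left out it ran from 0.21, without corn oil replicate 6, to 0.34, without corn oil replicate 5. Tmprss2 was among the dim genes that the filter on low levels leaves out, and RMA compresses changes of dim genes. Adipocyte markers ran in the opposite direction between litters. Of 6 such genes 2 lay above and 4 below 0, and their mean was 5.21 to 5.36 in flutamide and 5.30 to 5.52 in corn oil litters. Over 14 litters Tmprss2 and that mean had a Pearson r of -0.657 (permutation p = 0.0113, adjusted over 110 relations 0.346) and a Spearman rho of -0.618 (permutation p = 0.0219). Without the 2 litters farthest out on the marker mean r was -0.559, and within groups it was 0.0273 in flutamide and -0.538 in corn oil litters. The part of adipocyte content in the Tmprss2 difference was not tested.

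Pmepa1 and Ndrg1 act on growth control. Pmepa1 encodes a membrane protein that binds Nedd4-type ubiquitin ligases and Smad proteins and dampens signalling by transforming growth factor beta. It ran from 7.08 through 7.36 to 7.48 in flutamide litters and from 7.04 through 7.37 to 7.49 in corn oil litters, nearly the same span. Its difference was -0.01 (SE 0.08, interval -0.17 to 0.15; limma adjusted p = 0.992), the smallest of the 10 in size.

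Ndrg1 encodes a cytoplasmic protein induced by hypoxia, differentiation and androgens. Its values ran from 7.14 through 7.21 to 7.39 in flutamide litters and from 6.93 through 7.13 to 7.38 in corn oil litters. All 7 flutamide litters lay above the corn oil median, and 4 corn oil litters lay below every flutamide litter. The difference was 0.15 (SE 0.07, interval -0.003 to 0.29), a 1.11-fold level, with an unadjusted limma p of 0.0546 and an adjusted p of 0.554. With single litters left out it ran from 0.11 to 0.19. The adipocyte mean also ran against Ndrg1, with an r of -0.614 over 14 litters (permutation p = 0.0196, adjusted 0.367), a rho of -0.626 (permutation p = 0.0189), and -0.507 without the 2 litters farthest out on the marker mean. Within groups r was 0.163 in flutamide and -0.68 in corn oil litters, and its part in the difference was not tested.

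Abcc4, Steap4, Camkk2 and Inpp4b serve transport, iron handling and signalling. Abcc4 encodes MRP4, an exporter of cyclic nucleotides and conjugated steroids. It ran from 6.78 through 6.98 to 7.10 in flutamide litters and from 6.79 through 6.90 to 7.19 in corn oil litters, and the difference was 0.01 (SE 0.07, interval -0.14 to 0.16; limma adjusted p = 0.984). Its other 2 probe sets gave 0.05 (interval -0.11 to 0.21) and -0.01 (interval -0.15 to 0.13), so none of the 3 separated the groups.

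Steap4 encodes a metalloreductase of iron and copper uptake. Its flutamide litters ran from 5.80 through 5.96 to 6.13 and its corn oil litters from 5.94 through 6.005 to 6.09. The flutamide litters lay on both sides of the corn oil range, with 2 above and 3 below all corn oil litters. The difference was -0.04 (SE 0.06, interval -0.16 to 0.08; limma adjusted p = 0.883). It was -0.06 without flutamide replicate 2 and -0.01 without flutamide replicate 4. It was 1 of 2 members with the larger SD in flutamide litters, 0.12 against 0.06, the other being Fkbp5.

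Camkk2 encodes the calcium-dependent kinase upstream of AMP-activated protein kinase. It ran from 5.598 through 5.69 to 5.83 in flutamide litters and from 5.55 through 5.67 to 5.97 in corn oil litters. Both ends were corn oil litters, replicates 4 and 3, and the difference was -0.02 (SE 0.07, interval -0.16 to 0.12; limma adjusted p = 0.950). Inpp4b encodes a lipid phosphatase that removes a phosphate from a product of phosphoinositide 3-kinase. It had the smallest spread of the 10, an SD within groups of 0.08, below that of all but 6.2% of genes. Its flutamide litters ran from 6.38 through 6.51 to 6.59 and its corn oil litters from 6.37 through 6.48 to 6.66, with a difference of -0.01 (SE 0.05, interval -0.12 to 0.11; limma adjusted p = 0.988).

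**Figure D2:**
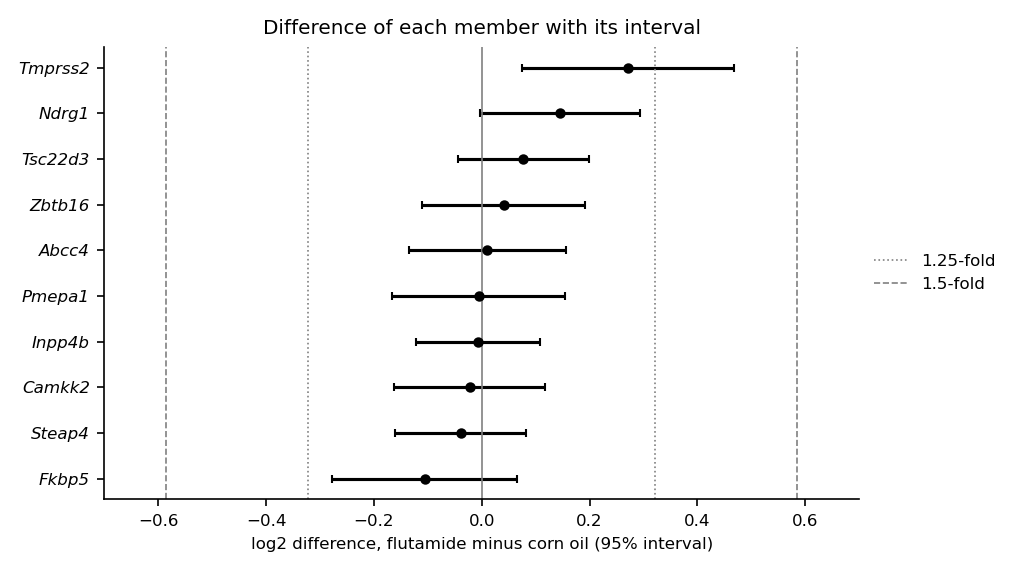
Difference of each member on the log2 scale, flutamide minus corn oil (horizontal axis), with its 95% interval; dotted and dashed lines mark 1.25-fold and 1.5-fold. The interval of Tmprss2, from 0.07 to 0.47, is the 1 that leaves 0 out, and no interval reaches 1.5-fold.

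Other androgen targets were read from a list of genes described as induced in prostate or other androgen target cells. Of 33 measured genes in a list of 36 further androgen targets, 0 passed the limma test in either direction, against 0.0069% of all genes. An unadjusted limma p under 0.05 was held by 3 of the 33, against 9.16% of all genes. Of these 33, 13 lay above and 20 below 0, with a median of -0.03, and over all genes 52.3% lay above 0. The smallest p-values belonged to Slc45a3, a membrane transporter known from prostate, with 0.19 (SE 0.06; limma adjusted p = 0.363), Aldh1a3, a retinaldehyde dehydrogenase, with -0.16 (SE 0.06; limma adjusted p = 0.447), and Sat1, a polyamine acetyltransferase, with -0.14 (SE 0.06; limma adjusted p = 0.506). These 3 did not share a direction.

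Glucocorticoid targets other than the members showed 0 calls among 25 measured of 26 listed. Of these 25, 2 had an unadjusted limma p under 0.05, against 9.16% of all genes. Here 10 lay above and 15 below 0, with a median of -0.03. The smallest p-values were those of Klf15, a transcription factor of metabolic genes, with 0.16 (SE 0.06; limma adjusted p = 0.423), Lpin1, a phosphatidate phosphatase, with -0.16 (SE 0.07; limma adjusted p = 0.489), and Ddit4, an inhibitor of the growth kinase complex mTORC1, with 0.12 (SE 0.07; limma adjusted p = 0.625). Nr3c1, which encodes the glucocorticoid receptor, had 7.77 ± 0.10 in flutamide and 7.87 ± 0.12 in corn oil litters (SD, n = 7 each), a difference of -0.10 (SE 0.06; limma adjusted p = 0.681).

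Among 9 measured genes of 10 listed for steroid receptors and their chaperones, 0 passed the limma test. Where 9.16% of all genes had an unadjusted limma p under 0.05, 1 gene of the 9 did. That gene was Hspa8, a constitutive Hsp70 chaperone that helps load steroid receptors onto Hsp90, with 11.5 ± 0.12 in flutamide and 11.3 ± 0.19 in corn oil litters (SD, n = 7 each) and a difference of 0.21 (SE 0.08; limma adjusted p = 0.443). Hsp90ab1, the Hsp90 chaperone itself, differed by 0.08 (SE 0.05; limma adjusted p = 0.662). The list's median was 0.02, with 5 genes above and 4 below 0.

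Relatives of the members were read from a list of genes of the same families. In 28 measured of 31 listed family genes 0 passed the limma test, with 13 above and 15 below 0 and a median of -0.01. At an unadjusted limma p under 0.05 there were 2 of the 28, against 9.16% of all genes. Tmprss11d, a transmembrane protease of the same family as Tmprss2, had the largest difference, with 6.40 ± 0.24 in flutamide and 6.05 ± 0.27 in corn oil litters (SD, n = 7 each), 0.35 (SE 0.12; limma adjusted p = 0.363). Steap3, a metalloreductase like Steap4, differed by 0.16 (SE 0.07; limma adjusted p = 0.494) and Inpp5d, a lipid phosphatase of blood cells, by 0.13 (SE 0.09; limma adjusted p = 0.697). Genes 1 step along the members' pathways, with 16 measured of 20 listed, had 0 calls. At an unadjusted limma p under 0.05 there were 0 of the 16, against 9.16% of all genes. Of these 16, 8 lay above and 8 below 0, with a median of -0.001, and differences ran from -0.08 to 0.08. Smad2, a signal carrier for transforming growth factor beta, differed by 0.08 (SE 0.05; limma adjusted p = 0.639), Camk1, a substrate of Camkk2, by -0.08 (SE 0.07; limma adjusted p = 0.765), and Tgfbr1, a receptor for transforming growth factor beta, by -0.06 (SE 0.06; limma adjusted p = 0.774).

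**Figure D3:**
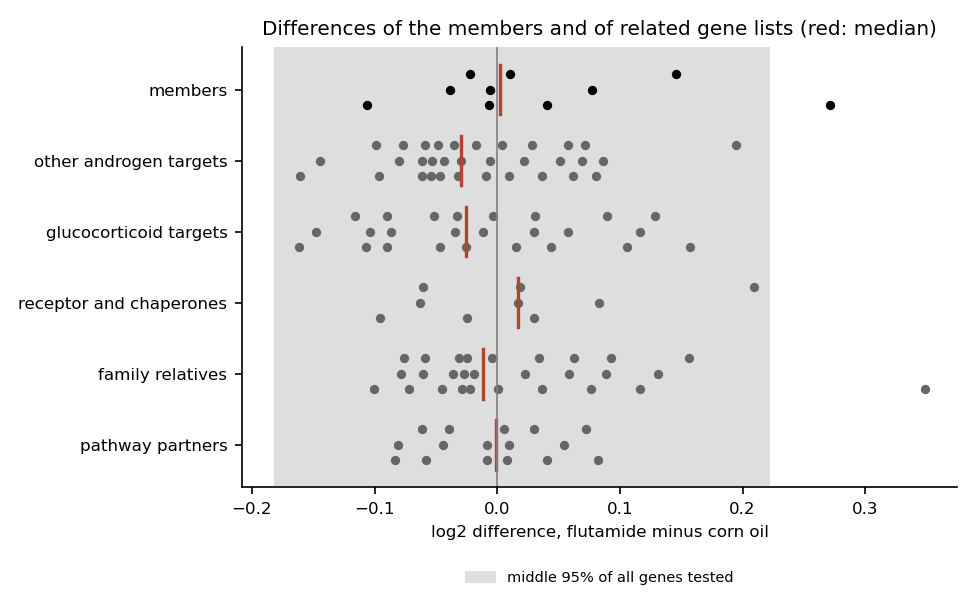
Difference on the log2 scale, flutamide minus corn oil (horizontal axis), of each measured gene in the members and in 5 related lists, with the median of a list in red and the middle 95% of all genes tested, from -0.18 to 0.22, in grey. All list medians lie between -0.03 and 0.02, and Tmprss2 and Tmprss11d lie to the right of the band.

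Whether the members varied together between litters, whatever the treatment, was asked over all 45 pairs. None passed a two-sided permutation test of Pearson's r over 14 litters after adjustment over the 45, and 2 had an unadjusted permutation p under 0.05. Of the 45 values of r, 19 were above 0, with a median of -0.066. Fkbp5 and Tmprss2 had the largest r in size, -0.537 (permutation p = 0.047, adjusted 0.597), with a Spearman rho of -0.499 (permutation p = 0.0709). An r of that size or more was held by 7.01% of all pairs of genes tested. It was -0.361 without the 2 litters farthest out on Fkbp5, -0.639 within flutamide and -0.468 within corn oil litters.

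Ndrg1 and Steap4 had an r of -0.536 (permutation p = 0.0492, adjusted 0.597) and a rho of -0.56 (permutation p = 0.0407). Without the 2 litters farthest out on Ndrg1 it was -0.544, and within groups it was -0.606 in flutamide and -0.544 in corn oil litters. No pair among the 3 members named as targets of glucocorticoids too passed. Fkbp5 and Zbtb16 had an r of 0.135 and a rho of 0.0989 (permutation p = 0.647 and 0.74), Fkbp5 and Tsc22d3 an r of -0.361 and a rho of -0.411 (permutation p = 0.206 and 0.146), and Zbtb16 and Tsc22d3 an r of 0.106 and a rho of 0.13 (permutation p = 0.722 and 0.659). Their adjusted p-values were 0.896, 0.618 and 0.896. Without the 2 litters farthest out on the first gene of each pair, r was -0.124, -0.217 and 0.0455. Within flutamide litters r was 0.0624, -0.379 and 0.0915, and within corn oil litters 0.309, -0.161 and 0.0187.

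**Figure D4:**
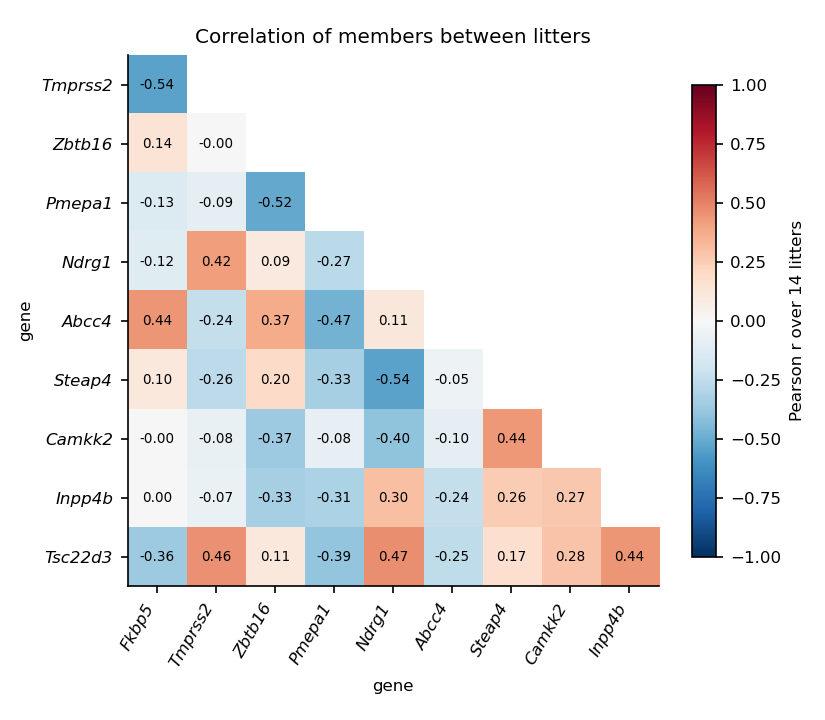
Pearson r over the 14 litters (colour and printed value) for each of the 45 pairs of members, with genes on both axes. Values run in both directions, from -0.54 for Fkbp5 with Tmprss2 to 0.47 for Ndrg1 with Tsc22d3, and none passed after adjustment.

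The genes whose values followed each member most closely across the 14 litters, after subtraction of group means, had Pearson r from 0.777 to 0.88, the highest among 14497 genes and given as a description. For Fkbp5 they were Slc6a2 and Drd4 with 0.838 and 0.836, and for Tmprss2 Or2k2 and Acmsd with 0.858 and 0.848. For Zbtb16 they were Bloc1s2 and Ap5z1, for Tsc22d3 Bmpr2 and Dclre1c, for Pmepa1 Tubb2b and Gabpb2, and for Ndrg1 Ppp6r1 and Pcdhb2. For Abcc4 they were Clec4e and Or8b8, for Steap4 Tpx2 and Dlgap5, for Camkk2 Ncor1 and Slc25a32, and for Inpp4b Abcb1b and Rptor. The 20 genes were all different, and no member was among the closest genes of another. The 14 points share their arrays' normalisation.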

How the data were processed

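RNA of 14 samples, 7 flutamide and 7 corn oil litters, was amplified from 50 ng with the NuGEN Applause kit and hybridised to Affymetrix arrays, per the labels' protocols. The authors deposited log2 values of 28826 probe sets, made with RMA per the submitters' processing notes; its version and the build behind the array were not stated. The scale was read from the values. RMA compresses changes at low signal, and its between-array step takes out any shift that most genes share.

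Gene symbols came from GEO's annotation of the platform and were brought up to date with RefSeq's GRCr8 table, using gene numbers (14471 of 14497 genes matched). Of the probe sets, 15209 had 1 symbol, 306 several and 13311 none; only those with 1 were tested, the brightest per gene. Genes with near-identical copies could be measured by 1 probe set. Differences were fitted in R 4.3.3 by lmFit and eBayes of limma 3.58.1; two-sided p-values were adjusted over all genes by Benjamini-Hochberg, and the threshold was 0.05; SE and 95% intervals are limma's. The number of arrays limits the precision. The fit was also run on simulated data, with the residuals of these samples shuffled across both groups. Such shuffling does not keep a spread that differs between groups, as that of Tmprss2 did.

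Correlations used 100000 permutations, and exact enumeration within groups of 7. The members and gene lists were chosen with earlier results of these data known. Named genes are the members, Nr3c1, the 3 smallest p-values of each related list and the 2 closest patterns of each member; 110 relations were added later, of each member with the mean of 2 target lists and 8 marker lists and with the SD of all probe sets on an array, as was leaving out 2 litters together. Replicate numbers are shared between groups but not said to mark a shared dam or day. Deviations from group means correlated by -0.07 to 0.15 within a number, and 1 of 7 numbers exceeded 0.1, so they were not treated as paired. Some listed genes are not analysed here.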

Additional observations from a re-analysis of the deposited data

How the results depend on the processing

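No member passed limma's test under any alternative: scaling, quantile normalisation, leaving out the dimmest genes (which drops Tmprss2), averaging or testing all probe sets, trended variance, array weights, the replicate block, single litters left out, or corn oil replicate 1 and flutamide replicate 7 left out together. The smallest adjusted p among these was 0.247, for Tmprss2. The count of genes called over all genes was 2 with trended, robust variance, 0 with the replicate block and 0 without those 2 litters, and 0 to 1 when any 1 litter was left out. The 45 member pairs, recomputed with both scalings, averaged probe sets, group means subtracted and those litters left out, gave 0 calls each time. Of 229 recomputed member differences 207 kept their sign and 22 did not, all of them of 4 members near 0. Part of the 207 could not change. Leaving out the dimmest genes, testing all probe sets, trended variance and the replicate block return the main difference itself. Averaging does so too for members with 1 probe set. Abcc4 was -0.0014 with centred arrays, -0.020 without the 2 litters, and -0.017 to 0.054 without any 1 litter. Pmepa1 was 0.016 with quantile normalisation, 0.00092 with array weights, and -0.053 to 0.033 without any 1 litter. Inpp4b was 0.0092 without the 2 litters and -0.025 to 0.023 without any 1 litter. Camkk2 was -0.049 to 0.021 without any 1 litter. Signal over background was not analysed here.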

Other observations

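Steap4 ran opposite to the epidermal marker mean within the corn oil litters. The mean of 4 suprabasal and cornified epidermis genes and Steap4 had a Pearson r of -0.975 (exact permutation p = 0.000198, the smallest 7 litters can give) and a Spearman rho of -1.0 (exact permutation p = 0.000397) over those 7, with an adjusted p of 0.0436 over 220 relations within groups. Steap4 spanned only 5.94 to 6.09 there, and the marker mean 10.78 to 10.83. Over the 7 flutamide litters r was -0.562 (exact permutation p = 0.189), and over all 14 litters -0.481 (permutation p = 0.0822, adjusted 0.823), with a rho of -0.644 (permutation p = 0.0154), and -0.714 without the 2 litters farthest out on the marker mean. Of the 220 relations 10 had an unadjusted exact permutation p under 0.05, and 1 passed. No share over all genes was computed beside these counts, so they are not read as a result about the members. The adjustment covered the Pearson p-values within groups only, not those of rho. Fkbp5 also ran against that mean in corn oil litters, with an r of -0.839 (exact permutation p = 0.0179, adjusted 0.867). In flutamide litters its r was 0.391 (exact permutation p = 0.379). Fkbp5 and Steap4 had an r of 0.807 within corn oil and -0.322 within flutamide litters. The relation of Steap4 with the marker mean was noticed after the values were seen, and whether the groups differ in it was not tested.

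Fkbp5 had higher values in litters with higher skeletal muscle markers. Its r with the mean of 6 such genes was 0.653 over 14 litters (permutation p = 0.0112, adjusted over 110 relations 0.346), with a rho of 0.705 (permutation p = 0.00619), 0.617 without the 2 litters farthest out, 0.839 in flutamide and 0.326 in corn oil litters. It did not pass the adjustment, as none of the 110 relations did, and 8 had an unadjusted permutation p under 0.05. No share over all genes was computed beside that count, so it is not read as a result about the members. The relations are given as a description.

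Abcc4 held 3 of those 8. Its r was -0.653 with the mean of the other androgen targets (permutation p = 0.0111, adjusted 0.346), with a rho of -0.521 (permutation p = 0.0599), -0.561 without the 2 litters farthest out, -0.452 in flutamide and -0.766 in corn oil litters. With the SD of all probe sets on an array r was -0.643 (permutation p = 0.0126, adjusted 0.346), with a rho of -0.704 (permutation p = 0.00627), -0.48 without the 2 litters farthest out, -0.772 in flutamide and -0.605 in corn oil litters. That SD ran from 1.677 to 1.73 in flutamide and from 1.686 to 1.76 in corn oil litters, and its part in the other relation was not tested. With the basal keratinocyte mean r was -0.568 (permutation p = 0.0335, adjusted 0.526), with a rho of -0.442 (permutation p = 0.115), and the relation rested on the 2 litters farthest out, since r was -0.0937 without them, -0.545 in flutamide and -0.667 in corn oil litters.

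The remaining relations were those of Steap4 with the glucocorticoid targets and of Tmprss2 with the endothelial markers. The first had an r of 0.613 (permutation p = 0.02, adjusted 0.367), a rho of 0.512 (permutation p = 0.0657), 0.382 without the 2 litters farthest out, 0.733 in flutamide and 0.363 in corn oil litters. The second had an r of -0.552 (permutation p = 0.0424, adjusted 0.583), a rho of -0.42 (permutation p = 0.137), -0.571 without the 2 litters farthest out, 0.0763 in flutamide and -0.579 in corn oil litters.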
